A study of Mus musculus with 20 samples.

Results

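Peripheral myelin and Schwann cell genes were examined in RNA-seq of mouse temporomandibular joint (TMJ) condylar heads, the rounded end of the lower jaw taken with bone beneath its cartilage. The 8 genes were *Mbp*, *Pmp22*, *Prx*, *Mag*, *Cnp*, *Egr2*, *Sox10* and *Fa2h*, out of 54532 genes in the deposited count table, and all 8 passed the filter on low counts. They were selected on their measured levels in these same libraries, namely their large spread from library to library, so their spread and their difference between groups are given as a description with no test of their own. All mice carried loxP-flanked *Loxl2* on both alleles (Acan-Cre; Loxl2 fl/fl) with a tamoxifen-inducible Cre driven from the aggrecan gene, and were 6 months old at the first injection. The control group was 8 mice given vehicle (4 male and 4 female) and the group labelled LOXL2_KO was 12 mice given tamoxifen at 75 mg/kg (6 male and 6 female), with 5 daily injections, then monthly ones, and tissue taken 4 months later. Tamoxifen itself and the loss of *Loxl2* cannot be told apart, because no mouse without the Cre or without the floxed allele received the drug.

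Myelin is the stacked, lipid-rich membrane that glial cells wrap around axons so that nerve impulses travel fast. Schwann cells make it in peripheral nerves and oligodendrocytes make it in the brain and spinal cord. In Schwann cells the transcription factor Sox10 switches on Egr2 (also called Krox20), and both then drive the genes of myelin proteins and lipids. The jaw joint is supplied by branches of the trigeminal nerve, which run in its capsule and in the muscle and tissue around it, while cartilage itself has no nerve. *Prx* and *Pmp22* are best known from peripheral nerve, whereas *Mbp*, *Mag*, *Cnp*, *Fa2h* and *Sox10* are made by both kinds of myelinating glia.

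Library totals ran from 11153820 to 27045668 counts, and the mitochondrial genome took 9.06% to 23.1% of them. Levels are given as CPM, counts scaled to a common library size with TMM factors. *Loxl2*, the targeted gene, was no lower under the knockout label than in control, with a median of 70.3 CPM in control (from 16 to 103) and 110 CPM in the libraries labelled knockout (from 28.8 to 126). The label and not a measured loss of *Loxl2* RNA therefore defines that group here. By immunostaining, the authors report less LOXL2 protein in the knockout mice. The RNA counts are of whole genes and would include transcripts that lack the deleted exons. Cartilage markers varied widely, as the summed CPM of 8 chondrocyte genes ran from 36.5 in control replicate 8 and 189 in control replicate 6 to 4934 in knockout replicate 8. The tissue also held much skeletal muscle RNA, with 30655 to 151305 summed CPM over 10 muscle genes. These are bulk samples, in which fewer cells of a type and less RNA per cell cannot be told apart. For the myelin genes 5 libraries stood apart from the other 15, namely control replicates 1 and 5 and knockout replicates 2, 8 and 10, and results that rest on them are given with and without them. No sequencing batch was given in the labels.

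Promoter sequence is shown for 3 genes because the whole set was highest in the same 5 libraries and Egr2 and Sox10 are the factors known to act on such genes. RefSeq windows on GRCm38.p6, from 250 bases before to 50 bases after a transcript start, were found for 5 of the 8 genes (*Prx*, *Mag*, *Egr2*, *Pmp22* and *Cnp*), 14 windows in all. The *Prx* window lies at chr7:27499074-27499373 on the plus strand, the first *Mag* window at chr7:30914814-30915113 on the minus strand and the *Cnp* window at chr11:100574689-100574988 on the plus strand, each written 5′ to 3′ along its gene. On GRCm38 the protein-coding genes span 27499324 to 27520214 on chromosome 7 (*Prx*, ENSMUSG00000053198), 30899176 to 30914873 on chromosome 7 (*Mag*, ENSMUSG00000036634) and 100574904 to 100591729 on chromosome 11 (*Cnp*, ENSMUSG00000006782), so each window covers or adjoins the annotated start of its gene. Capitals mark ACAAAG or its reverse complement, a sequence that Sox factors are known to bind.
Prx: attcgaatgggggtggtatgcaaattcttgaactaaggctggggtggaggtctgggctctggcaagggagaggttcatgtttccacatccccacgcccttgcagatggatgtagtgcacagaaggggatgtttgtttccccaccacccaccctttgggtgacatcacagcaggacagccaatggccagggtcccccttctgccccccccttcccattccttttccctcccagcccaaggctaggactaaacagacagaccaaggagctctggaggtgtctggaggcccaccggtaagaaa
Mag: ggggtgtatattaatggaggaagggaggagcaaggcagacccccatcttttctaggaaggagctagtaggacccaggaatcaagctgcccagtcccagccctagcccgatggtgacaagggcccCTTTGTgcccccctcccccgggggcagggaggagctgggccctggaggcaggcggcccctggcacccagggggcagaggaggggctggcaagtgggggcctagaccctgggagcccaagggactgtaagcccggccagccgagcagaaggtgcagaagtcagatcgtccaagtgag
Cnp: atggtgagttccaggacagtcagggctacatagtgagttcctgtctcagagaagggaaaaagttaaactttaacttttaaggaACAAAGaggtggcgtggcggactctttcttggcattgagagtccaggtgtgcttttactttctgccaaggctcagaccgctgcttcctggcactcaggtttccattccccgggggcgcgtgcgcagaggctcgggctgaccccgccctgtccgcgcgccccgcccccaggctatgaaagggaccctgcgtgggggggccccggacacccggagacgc

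ACAAAG was searched on both strands, as were ACAATG, another Sox sequence, and GTGGGCG, an Egr sequence, and none of the 14 windows held more than 1 of these motifs. ACAAAG was in 3 of the 14 windows, a pair of overlapping *Mag* windows and the *Cnp* window, and in 18.7% of all 32851 promoter windows of this length. GTGGGCG was in 1 of the 14, a window of *Egr2* itself, against 7.97% of all windows. ACAATG was in 0 of the 14, against 12.6% of all. The *Prx* window held none of these motifs. These shares describe the letters in the windows alone.

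Structural proteins of compact myelin varied most in absolute level. *Mbp* encodes myelin basic protein, which holds the inner faces of the myelin membrane together. Control replicates 1 to 8 had 772, 17.0, 17.5, 23.9, 682, 243, 84.8 and 89.2 CPM of *Mbp*. The libraries labelled knockout, replicates 1 to 12, had 49.7, 529, 29.0, 25.4, 41.0, 121, 78.3, 800, 57.3, 1253, 21.9 and 80.4 CPM. The high values were control replicates 1 and 5 and knockout replicates 2, 8 and 10, the groups overlapped over most of their ranges, and the highest library was 73.7 times the lowest. Control replicate 6 came next, at a level the fifth library exceeded 2.18 times. *Pmp22* encodes the peripheral myelin protein whose extra gene copy causes Charcot-Marie-Tooth disease, and it is also made by other cells such as fibroblasts. It ran from 28.3 CPM in control replicate 8 to 405 CPM in control replicate 1, with a median of 63.0 CPM in control. In the libraries labelled knockout it ran from 38.3 to 586 CPM with a median of 77.0 CPM. The same 5 libraries held 348 to 586 CPM of *Pmp22*, and the sixth, knockout replicate 7, held 140 CPM.

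Proteins of the myelin sheath's outer and inner faces followed the same libraries with a wider gap. *Prx* encodes periaxin, which links the Schwann cell membrane to its cytoskeleton. Its level was 203 and 197 CPM in control replicates 1 and 5, and 181, 273 and 338 CPM in knockout replicates 2, 8 and 10. In the other 15 libraries it lay between 2.38 and 24.0 CPM, with the median at 5.59 CPM. The lowest of the 5 was thus 7.57 times the next library, and the control range lay within that of the other group, with medians of 6.43 CPM in control and 8.63 CPM in the libraries labelled knockout. *Mag* encodes myelin-associated glycoprotein, an adhesion molecule on the side of the sheath that faces the axon. It was low throughout, with medians of 1.20 CPM in control and 1.52 CPM in the libraries labelled knockout, and reached 15, 15.3, 12.0, 15.6 and 23.0 CPM in control 1, control 5 and knockout 2, 8 and 10. No *Mag* read was counted in knockout replicate 11, which allows up to 0.213 CPM at the floor of 3 counts. The sixth library for *Mag* was control replicate 6 with 2.90 CPM, as for *Mbp*.

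Enzymes of the myelin sheath and its lipids were highest in the same 5 libraries. *Cnp* encodes the phosphodiesterase found in the uncompacted parts of the sheath and, at lower levels, in many other cells. It lay between 12.6 and 28 CPM in the other 15 libraries and between 77.2 and 127 CPM in the 5, with medians of 19.6 CPM in control and 23.1 CPM in the libraries labelled knockout. *Fa2h* encodes fatty acid 2-hydroxylase, which makes the hydroxylated lipids of myelin, and had the widest gap, since the lowest of the 5 libraries was 8.55 times the sixth. It stood at 16.3 and 19.8 CPM in control replicates 1 and 5 and at 14.4, 19.0 and 23.3 CPM in knockout replicates 2, 8 and 10, and at no more than 1.68 CPM elsewhere, with medians of 1.56 CPM in control and 0.815 CPM in the libraries labelled knockout. It had no count in 3 libraries, control replicate 3 and knockout replicates 3 and 11, where the floor of 3 counts stands at 0.175, 0.149 and 0.213 CPM.

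Both transcription factors were high in the same libraries, with 1 addition for *Sox10*. Sox10 sets and keeps the glial identity of the Schwann cell, and Egr2 starts its myelin program. *Egr2* stood at 9.42 and 14.4 CPM in control replicates 1 and 5 and at 8.90, 13.7 and 17.3 CPM in knockout replicates 2, 8 and 10. In the other 15 it lay between 1.21 and 4.02 CPM, from as few as 17 counts in a library, and the group medians were 2.75 CPM in control and 3.57 CPM in the libraries labelled knockout. *Sox10* had 32.6 and 34.5 CPM in control replicates 1 and 5 and 29.3, 39.0 and 47.5 CPM in knockout replicates 2, 8 and 10. Knockout replicate 4 followed closely with 27.3 CPM, so that the fifth library was 1.07 times the sixth, and the group medians were 2.29 CPM in control and 3.26 CPM in the libraries labelled knockout. In that library *Mbp* was at 25.4 CPM, *Prx* at 9.73 CPM and *Fa2h* at 0.731 CPM, far below their values in the 5. *Mag* was at 0.959 CPM and *Cnp* at 20.4 CPM, also below the 5. *Pmp22*, at 113 CPM, was among its higher values outside the 5, and *Egr2*, at 4.02 CPM, was its highest outside them. Sox10 is also made outside glia, in pigment cells and in the secretory cells of salivary glands. A list of 6 melanocyte genes summed to 2.79 CPM in that library, where the highest sum, that of knockout replicate 12, was 5.56 CPM.

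**Figure D1:**
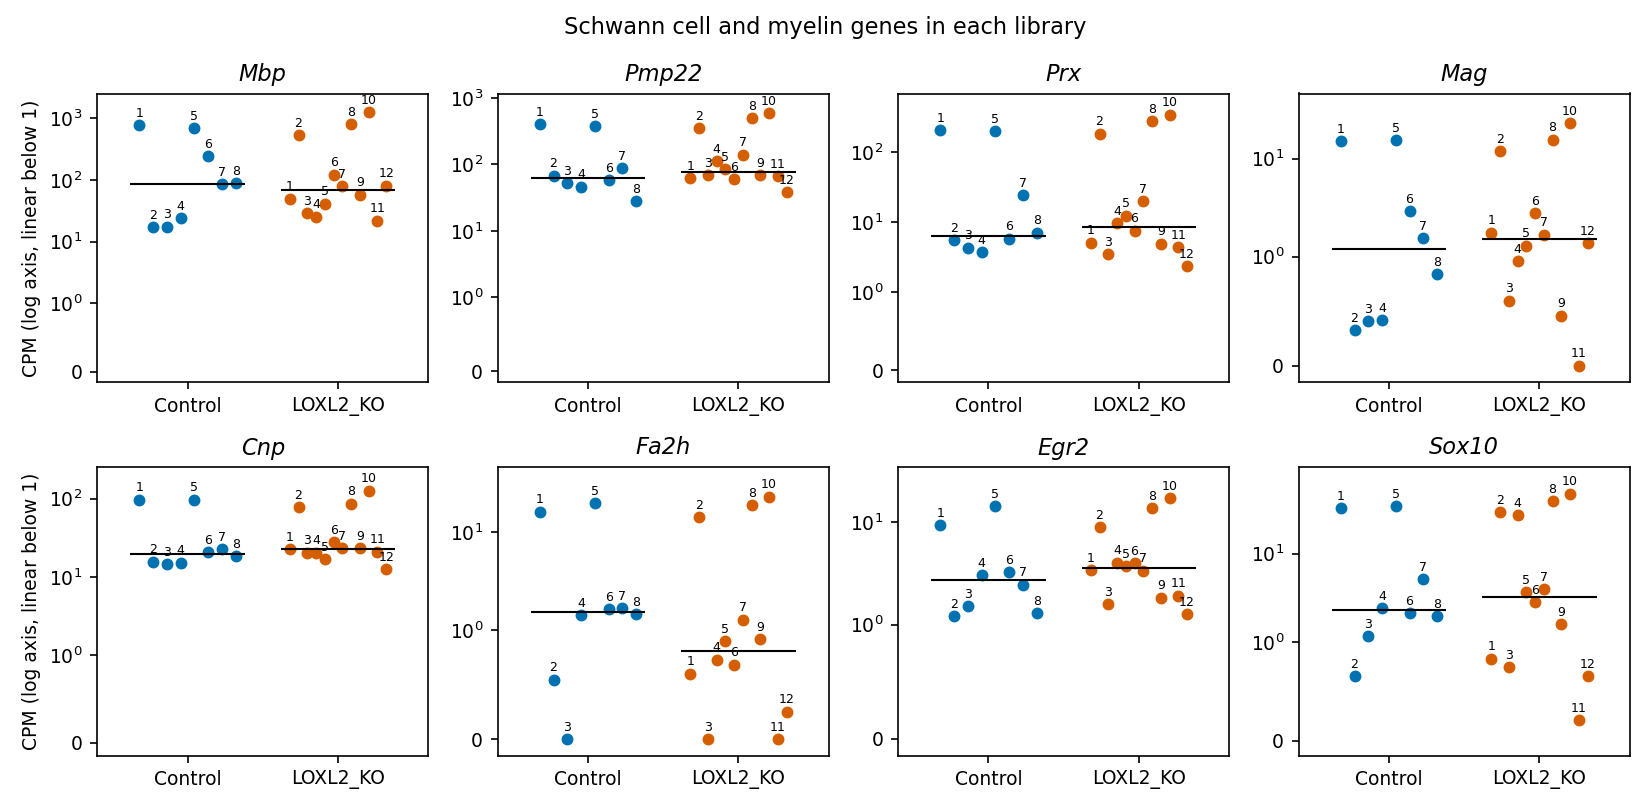
Each point is the CPM (log axis, linear below 1) of a gene in a library numbered by its replicate, for the 8 Control and 12 LOXL2_KO libraries, with a line at the group median. Control 1 and 5 and knockout 2, 8 and 10 are the 5 highest in every panel, and in the *Sox10* panel knockout 4 lies beside them at 27.3 CPM.

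The identity of the high libraries was compared across genes. The 5 libraries were defined by these 8 genes, so their rank as the 5 highest for 8 of the 8 was fixed by that choice. The same 5 libraries were the 5 highest for 9 of 10 tested genes of a companion list of Schwann cell myelin proteins. They were so for 141 of all 15984 tested genes (0.882%). Over all 45 companion genes of the Schwann cell lists, 39 were tested and 19 had these 5 libraries on top (48.7%). No gene of the oligodendrocyte, neuron, astrocyte, melanocyte, muscle, adipocyte, osteoclast, osteoblast and osteocyte, chondrocyte or immediate early lists did, out of 64 tested. At the share of 0.882% over all tested genes few or none of 64 would, so no contrast is read from this 0. Only 3 oligodendrocyte genes were tested. Of these, *Bcas1* came close, with control replicate 6 at 17.1 CPM just above knockout replicate 2 at 15.5 CPM. The summed CPM of the 8 genes was 1201 to 2415 in the 5 libraries and 91.4 to 337 in the other 15. They comprised the deepest library (knockout 2) and the shallowest ones (knockout 10, knockout 8 and control 5, at 11153820, 11570231 and 14177222 counts). Their mitochondrial share was 9.06% to 17.6% against 11% to 23.1% in the others, and their summed muscle list was 30655 to 56979 CPM against 39044 to 151305 CPM. The part of muscle content, depth and mitochondrial share in the spread of the myelin genes was not tested.

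Spread was then set beside that of all tested genes. The SD of log2 CPM within groups was 2.55 for *Fa2h*, 2.48 for *Prx*, 2.35 for *Sox10*, 2.16 for *Mag* and 2.09 for *Mbp*, and these stood at ranks 28, 32, 39, 66 and 86 of 15984. *Pmp22* (SD 1.34), *Egr2* (1.21) and *Cnp* (1.09), the genes with the higher level in the remaining libraries relative to their peak, stood at ranks 555, 801 and 1166.

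**Figure D2:**
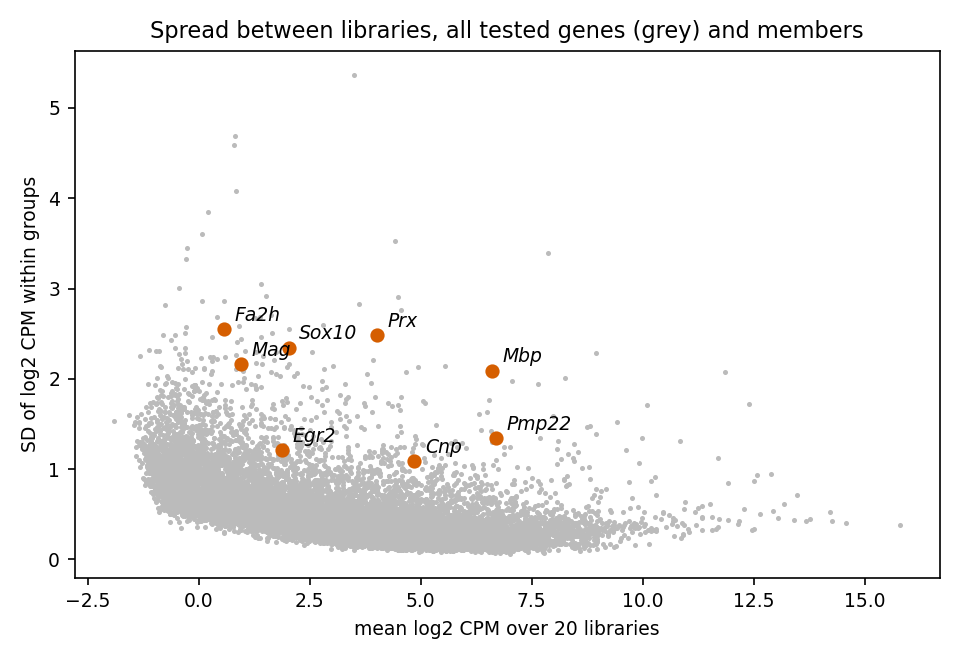
The SD of log2 CPM within groups (vertical axis) is plotted against mean log2 CPM over the 20 libraries for 15984 tested genes in grey and the 8 genes in orange. All 8 lie above most genes of like level, from 1.09 for *Cnp* to 2.55 for *Fa2h*.

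Levels between genes were compared per kilobase of annotated exon, which puts genes of different length on the same scale. The median over the 20 libraries was 29.3 CPM per kilobase for *Pmp22*, 9.37 for *Mbp*, 6.01 for *Cnp*, 1.31 for *Prx*, 0.973 for *Egr2*, 0.869 for *Sox10*, 0.366 for *Fa2h* and 0.358 for *Mag*. *Pmp22* exceeded *Mbp* in 19 of 20 libraries, *Prx* exceeded *Egr2* in 18, and *Sox10* exceeded *Fa2h* in 20. Neighbours in this order that changed places in many libraries were *Egr2* and *Sox10*, with *Egr2* higher in 10 of 20, and *Fa2h* and *Mag*, with *Fa2h* higher in 12. *Mbp* exceeded *Cnp* in 13 and *Cnp* exceeded *Prx* in 15 of 20. The exons of *Prx* share 300 bases with the antisense gene *Gm15541* and those of *Cnp* share 154 bases with *Dnajc7* on the opposite strand, and since the use of strand in counting was not stated, reads there cannot be assigned with certainty.

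*Mbp*, made by both kinds of myelinating glia, was then set against *Prx*, a gene of Schwann cells, and *Mobp*, a protein of oligodendrocyte myelin. In control replicates 1 and 5 and knockout replicates 2, 8 and 10 the ratio of *Mbp* to *Prx* counts was 3.81, 3.46, 2.92, 2.93 and 3.70. Values in or near this range were also found at far lower levels of both genes, with 3.04, 4.04 and 3.54 in control replicates 2, 3 and 7 and 2.62, 3.32 and 3.94 in knockout replicates 4, 5 and 7. In the remaining libraries *Mbp* stood higher above *Prx*. The ratio was 41.8 in control replicate 6, 33.8 in knockout replicate 12, 16 in knockout replicate 6, 12.7 in control replicate 8 and 11.7 in knockout replicate 9, on 84, 47, 198, 92 and 107 *Prx* counts. It was 9.75 and 8.31 in knockout replicates 1 and 3, 6.37 in control replicate 4 and 4.98 in knockout replicate 11. The libraries with the highest ratios also had much *Mobp*, at 77.6 CPM in control replicate 6, 24.2 CPM in knockout replicate 12 and 29.8 CPM in knockout replicate 6, against 0.384 CPM in control replicate 2. Control replicate 1 was high in both, with 203 CPM of *Prx* and 49.6 CPM of *Mobp*. *Mobp* does not stand for its whole list, since 7 of 10 oligodendrocyte genes were not tested. *Bcas1*, of the same list, had 44.8 and 15.5 CPM in knockout replicates 10 and 2, where *Mobp* had 18.4 and 0.128 CPM. In control replicate 6 *Bcas1* had 17.1 CPM. The neuron list summed to 23.3 CPM in knockout replicate 12, against 106 CPM in control replicate 6.

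Correlation of log2 CPM, centred within groups, describes the same pattern. Pearson's r between *Mbp* and *Prx* was 0.87 over the 20 libraries and 0.28 over the 15 others, whereas between *Mbp* and *Mobp* it was 0.19 over 20 and 0.78 over 15. For *Mag* and *Mobp* r was 0.10 and 0.50. *Prx* ran the other way, with r to *Mobp* at -0.18 and -0.26, and *Pmp22* had r to *Mobp* of -0.20 and -0.52. Since the libraries fall into 2 clusters for these genes, the value over 20 mostly reflects the gap between them. The points share library size and base composition, and no test was made.

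**Figure D3:**
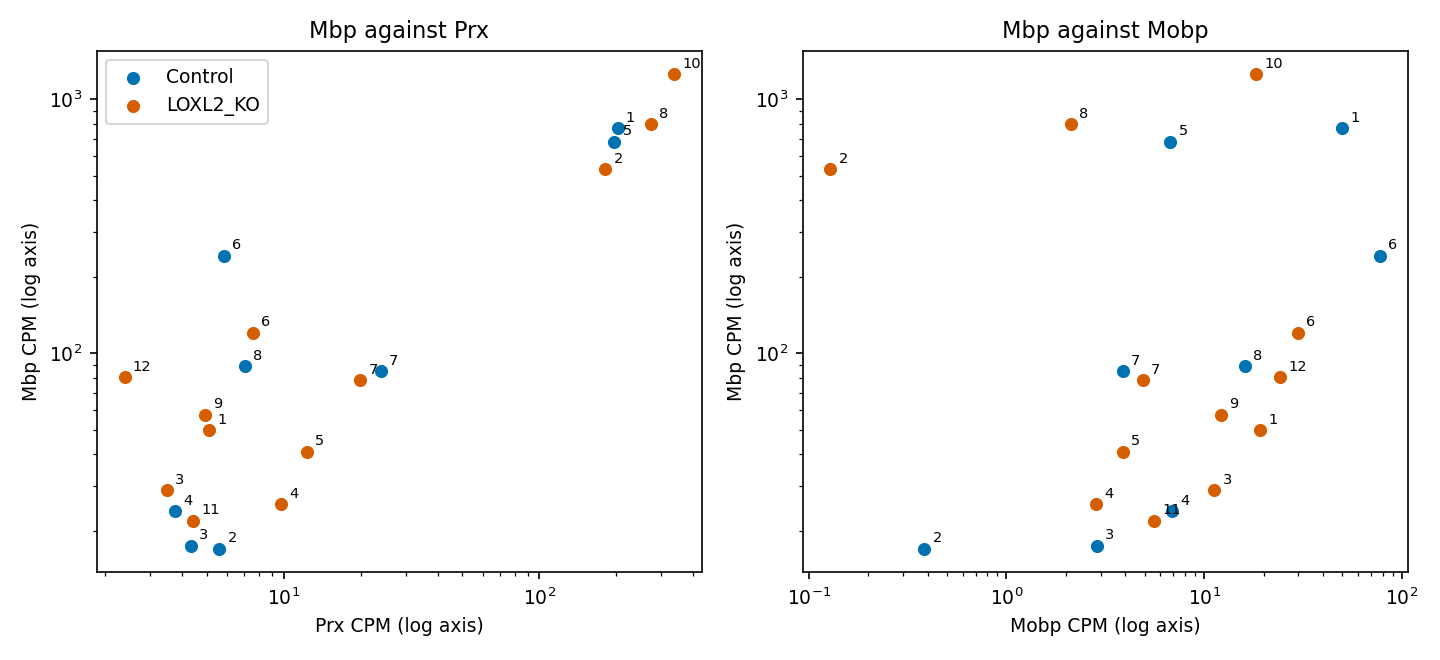
*Mbp* CPM (vertical, log axis) is plotted against *Prx* CPM (left) and *Mobp* CPM (right, log axes), with a point for each of the 8 Control and 12 LOXL2_KO libraries numbered by replicate. The 5 high libraries sit together on the left at ratios of 2.92 to 3.81, and several other libraries have more *Mbp* for their *Prx*, such as control 6 at 243 CPM of *Mbp* and 77.6 CPM of *Mobp*.

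Genes of like pattern were sought among all tested genes by Pearson's r to the mean of the 8 genes over the 20 libraries, with r over the 15 others beside it. The closest were *Mal* (0.98 and 0.88), which encodes a lipid raft protein of myelin, *Cadm4* (0.97 and 0.74), a Schwann cell adhesion molecule, *Plekha4* (0.97 and 0.74), *Gatm* (0.96 and 0.77), an enzyme of creatine synthesis, and *Kcna2* (0.96 and 0.81), a potassium channel of axons. *Drp2* (0.96 and 0.58), a partner of periaxin, *Reln* (0.96 and 0.68), *Dusp15* (0.96 and 0.81), *Aatk* (0.96 and 0.66) and *Ugt8a* (0.95 and 0.73), which makes galactosylceramide of myelin, followed. In all 40 genes outside the 8 had r above 0.9. Among the 8 genes themselves r over the 28 pairs ran from 0.77 to 0.97 over 20 libraries and from -0.13 to 0.76, with a median of 0.49, over the 15 others. Gene by gene, the closest was *Bcas1* for *Mbp* (0.97 and 0.93), a gene of young oligodendrocytes and also of the marker list for that cell type. It was *Plekha4* for both *Pmp22* (0.98 and 0.84) and *Prx* (0.99 and 0.88) and *Sema3b* for *Cnp* (0.96 and 0.72). It was *D430040D24Rik* for *Egr2* (0.93 and 0.62) and *Mal* for *Fa2h* (0.95 and 0.79).

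The groups were compared next, by edgeR's quasi-likelihood test across all genes with Benjamini-Hochberg adjustment at 0.05. Of the 8 genes, 0 were called, and of all 15984 tested genes 3673 were (23.0%), with 12.0% higher and 11% lower in the libraries labelled knockout, and 5910 at an unadjusted p under 0.05. No reading is drawn from the count of 0, because the genes were selected on values of these libraries. The DESeq2 Wald test, which called 22.5% of the genes it tested, and edgeR without the 5 high libraries, which called 16.8%, also called 0 of the 8. The log2 fold change, knockout minus control, was 0.09 (SE 0.88) for *Mbp*, 0.34 (SE 0.60) for *Pmp22*, 0.35 (SE 1.07) for *Prx* and 0.13 (SE 0.90) for *Mag*. It was 0.08 (SE 0.50) for *Cnp*, 0.23 (SE 0.55) for *Egr2*, 0.36 (SE 0.93) for *Sox10* and -0.07 (SE 1.04) for *Fa2h*. In 7 of the 8 genes the value was positive, the median was 0.18 beside -0.02 over all tested genes, and every SE exceeded its fold change. The SD exceeded the mean of *Mbp* in both groups, 241 CPM ± 309 (SD, n = 8) for control against 257 CPM ± 397 (SD, n = 12).

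Which libraries were included set the direction for several genes. Without the 5 high libraries the log2 fold change was -0.51 (SE 0.54) for *Mbp*, 0.45 (SE 0.26) for *Pmp22*, -0.14 (SE 0.47) for *Prx* and 0.17 (SE 0.64) for *Mag*, and it was 0.22 (SE 0.15) for *Cnp*, 0.38 (SE 0.33) for *Egr2*, 1.02 (SE 0.85) for *Sox10* and -0.91 (SE 0.74) for *Fa2h*. *Mbp* and *Prx* thus changed sign. Omission of knockout replicate 10 alone gave the lowest value of every gene, from -0.61 for *Fa2h* and -0.53 for *Mbp* to 0.00 for *Pmp22*. Omission of control replicate 1 or 5 gave the highest, from 0.45 for *Cnp* to 1.02 for *Prx*.

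Companion genes of the Schwann cell were taken from 5 lists of 45 genes, of which 39 were tested and 6 (*Pmp2*, *Pllp*, *Gjb1*, *Pou3f2*, *Sox2* and *Tfap2a*) were too low. Of the 39, 3 rose and 1 fell in the libraries labelled knockout, with a median log2 fold change of 0.04 beside -0.02 over all tested genes. Among 10 tested myelin proteins 0 were called in either direction. *Drp2* had a log2 fold change of 0.30 (SE 0.81). Of the 6 enzymes of myelin lipids 0 were called. *Cers2*, a ceramide synthase, had 0.21 (SE 0.12), *Sptlc2*, a subunit of the enzyme that begins sphingolipid synthesis, 0.60 (SE 0.22, edgeR adjusted p = 0.0516) and *Aspa* -0.44 (SE 0.27).

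The 4 calls among the 39 are a smaller share than the 23.0% over all tested genes, so no theme is read from them. *Nab2*, a corepressor that binds Egr proteins, rose from a control median of 18.3 CPM (7.5 to 26.0) to 26.9 CPM (15.9 to 42.6), by 0.63 on the log2 scale (SE 0.20, edgeR adjusted p = 0.0266). *Zeb2*, a repressor that Schwann cells need to mature and that macrophages and other cells also make, rose from 33.5 CPM (23.8 to 46.4) to 50 CPM (28.3 to 75.6), by 0.62 (SE 0.18, adjusted p = 0.0195). *Lpar1*, a receptor for lysophosphatidic acid, rose from 31.7 CPM (14.0 to 36.4) to 47.5 CPM (29.3 to 80.2), by 0.74 (SE 0.19, adjusted p = 0.0086). All 3 overlapped between the groups, and none had the 5 high libraries on top. *Ngfr*, the low-affinity neurotrophin receptor of non-myelinating Schwann cells, was lower, with control at 1.04 to 11 CPM (median 1.55) and the libraries labelled knockout at 0.232 to 2.89 CPM (median 1.10), by -1.36 (SE 0.47, adjusted p = 0.0433). The highest *Ngfr* value, 11 CPM, was that of control replicate 2. The call of *Lpar1* and that of *Zeb2* held in 20 of the 20 fits that leave out a library and that of *Nab2* in 18, whereas *Ngfr* was called in 6 and not in 14, control replicate 2 among the latter. Without the 5 high libraries *Lpar1*, *Zeb2* and *Ngfr* were called and *Nab2* was not.

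Other named companions were not called over the 20 libraries. They were *Nab1*, another Egr corepressor, with 0.28 (SE 0.12), *Ndrg1*, mutated in a hereditary neuropathy, with 0.17 (SE 0.42), *Mtmr2*, a lipid phosphatase, with 0.07 (SE 0.09), *Ncam1* with 0.62 (SE 0.28), *S100b* with 0.22 (SE 0.52) and *Plekhb1* with -0.55 (SE 0.49). *Ndrg1* and *S100b* had the 5 high libraries on top, at 157 to 290 CPM of *Ndrg1* against at most 77.9 CPM in the others, and at 41.8 to 68.7 CPM of *S100b* against at most 31.6 CPM.

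**Figure D4:**
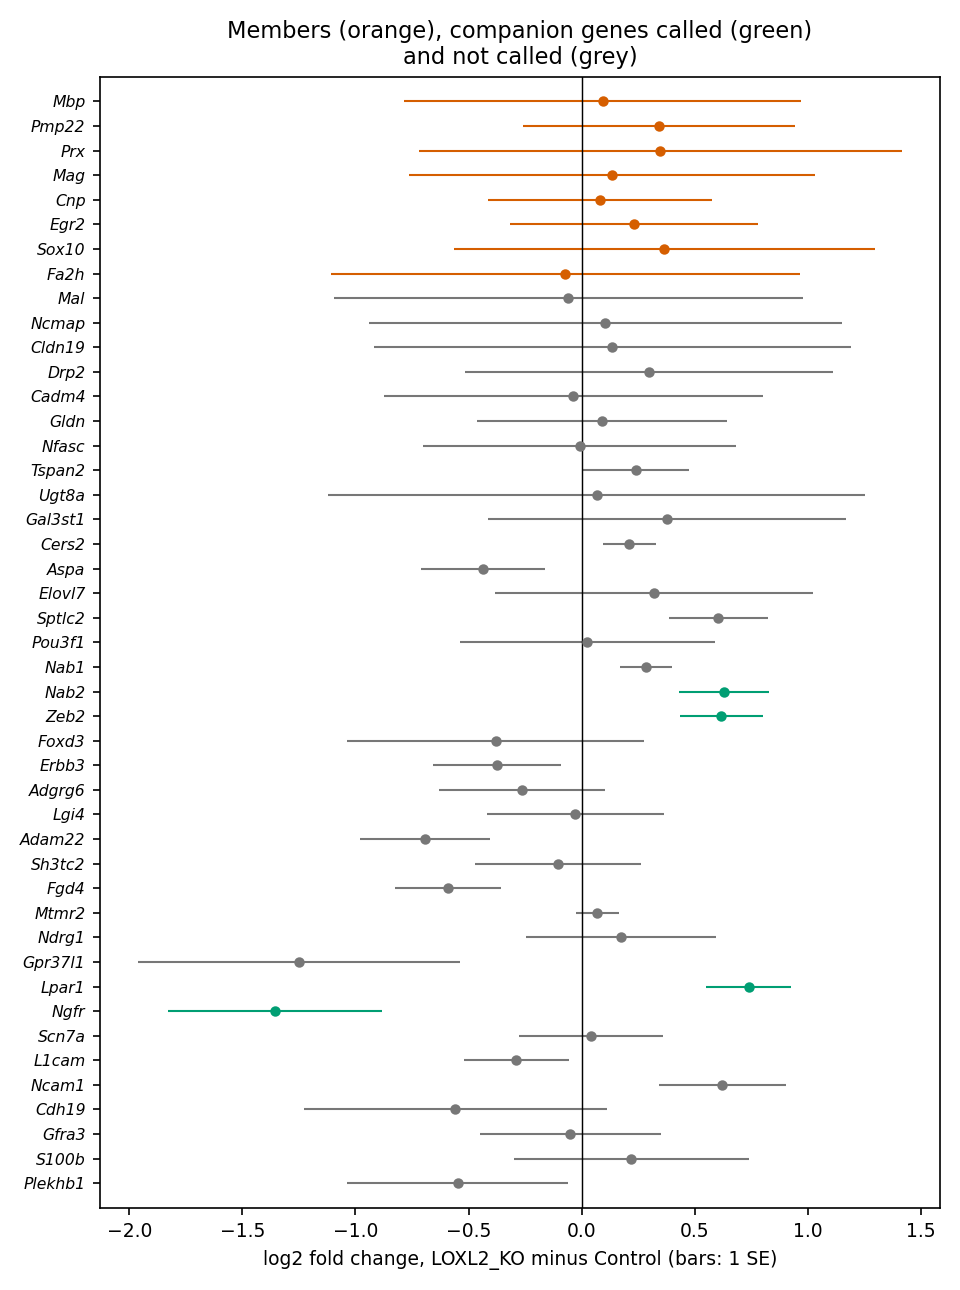
Log2 fold changes, LOXL2_KO minus Control, with bars of 1 SE from the edgeR fit, are shown for the 8 genes (orange) and 37 of the 39 tested companion genes, called in green and not called in grey. The bars of the 8 genes all cross 0, and the 4 called companions are *Nab2*, *Zeb2* and *Lpar1* above 0 and *Ngfr* below it.

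Markers of other cells that make some of these genes were examined. Lists of oligodendrocyte, neuron and astrocyte genes held 31 genes, of which 19 were tested, 0 rose and 3 fell, with a median log2 fold change of -1.02. Over all tested genes 11% were called lower and the median was -0.02, and no theme is read from the count of 3. The 3 were *Rbfox3*, a nuclear protein of neurons (-2.35, SE 0.77, edgeR adjusted p = 0.0315), *Aldoc*, an aldolase of astrocytes (-2.34, SE 0.81, adjusted p = 0.0407), and *Aqp4*, a water channel of astrocytes and of fast muscle fibres (-0.93, SE 0.24, adjusted p = 0.00874). *Aqp4* alone was called without the 5 high libraries, without control replicate 1 and without knockout replicate 2, while 9 of the 17 genes then tested were called without knockout replicate 6. In the 20 fits that leave out a library *Aqp4* was called in 20, *Rbfox3* in 18 and *Aldoc* in 8, and the DESeq2 Wald test called neither *Rbfox3* nor *Aldoc* but *Aqp4*, *Slc17a7*, *Snap25* and *Syt1*. The summed neuron list was 294 CPM in control replicate 1, 106 CPM in control replicate 6 and 100.03 CPM in knockout replicate 6, and at most 33.0 CPM in the others, and the oligodendrocyte list was highest in control replicates 6 and 1, at 101 and 95.6 CPM. Genes of the oligodendrocyte list differed in level, with *Mog* at most 1.69 CPM and *Opalin* at most 0.571 CPM. *Mobp* reached 77.6 CPM in control replicate 6 and *Bcas1* 44.8 CPM in knockout replicate 10. *Mobp* was not called (-0.87, SE 0.74). Control replicate 1 had 772 CPM and control replicate 6 had 243 CPM of *Mbp*, the highest controls beside replicate 5, and the part of central nervous tissue in those values was not tested.

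Lists of the joint's other cells were described in the same way. Beside them, 12.0% of all tested genes were called higher and 11% lower. Of 10 muscle genes 4 fell and 0 rose, of 8 osteoclast genes 8 rose, and of 7 osteoblast and osteocyte genes 3 rose and 0 fell. Of 7 tested chondrocyte genes 1 rose, of 7 immediate early genes 2 rose, and 0 of 4 tested adipocyte and 0 of 2 tested melanocyte genes were called. The most abundant gene of each list had a log2 fold change of -0.45 (*Acta1*), 2.68 (*Ctsk*), 0.94 (*Ibsp*), 0.15 (*Comp*), -0.08 (*Jun*), -0.42 (*Fabp4*) and 0.36 (*Dct*). The 5 libraries high in myelin genes spanned 373 to 7709 CPM of the osteoclast list against 111 to 5411 CPM in the other 15, so that list did not single them out. The part of these other cells in the levels of the myelin genes was not tested.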

How the data were processed

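RNA from 20 mouse TMJ condylar heads was sequenced. The authors trimmed paired-end reads, mapped them to mm10 and counted them per gene with featureCounts 1.5.0-p3, and the deposited table holds these counts, not normalized. Not given in the sources used here are the aligner, the gene annotation, whether strand was used and how multiply mapped reads were treated. Groups and replicate numbers came from the sample titles, and each library is taken as 1 sample. Identifiers were matched to GENCODE M21 (GRCm38/mm10) for 54495 of 54532 genes.

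Genes were kept by filterByExpr (15984 genes), scaled by TMM and tested with edgeR 4.0.16 in R 4.3.3 (quasi-likelihood F-test, two-sided, Benjamini-Hochberg adjustment, threshold 0.05). SE values were derived from the F statistic. Log2 CPM had a prior count of 2. In a simulation of this comparison on 15984 genes, 173 of 200 genes changed by 1.5 (log2) were recovered, with 9 false calls. The study's DESeq2 Wald test (version 1.42.0) was an alternative, with other scalings, filters, a replicate block and omission of each library. Omission of the 5 libraries high in myelin genes was added after seeing the data. A gene at the floor of 3 counts lies at 0.0964 to 0.246 CPM by library, which covers counting error alone. Precision at low levels is limited by depth.

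The 8 genes and the gene lists were chosen with earlier results of these data known. The named genes were all 8 genes, the 3 most abundant genes and every called gene of each companion list, the most abundant gene of each other list, and the genes of highest r (10 to the mean and 3 to each gene, of which at most the closest is given). Values of some single companion genes are not reported here. Called genes of the nervous lists, *Mog* and *Opalin*, the genes of the *Sox10* library and those of the ratios were named after their values were seen.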

Additional observations from a re-analysis of the deposited data

Results flagged for a closer look

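In the 8 control libraries, 51 groups of values (genes and summed lists) were examined for a single library far from the others, and 8 were found. Chance gives about 1 in 20 for independent values with a normal distribution. CPM can be skewed and the groups overlap, as *Snap25* is in the neuron list and *Ctsk* in the osteoclast list. The 8 are therefore not read as an excess. None was a value of the 8 myelin genes, but 2 control libraries are high together for these, which a check for a single library can miss. Control replicate 1 stood apart in the summed neuron list, at 294 CPM, in the summed astrocyte list, at 358 CPM, and in *Snap25*, a protein of nerve endings, at 117 CPM. Control replicate 5 stood apart in the summed osteoclast list, at 1346 CPM, and in *Ctsk*, the collagen-degrading protease of osteoclasts, at 435 CPM. Control replicate 8 was the lowest control for *Lpar1*, at 14.0 CPM, and the highest for *Jun*, at 189 CPM. Control replicate 2 was the highest for *Ngfr*, at 11 CPM, and *Ngfr* was not called without it.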

How the results depend on the processing

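The number of the 8 genes called was 0 under every alternative run. Each log2 fold change moved by less than the SD between libraries, a wide yardstick that exceeds its SE, so this does not show stability. Without the 5 high libraries *Fa2h* moved from -0.07 to -0.91 and *Sox10* from 0.36 to 1.02. The sign was not stable for several genes (*Mbp* from -0.53 to 0.64 when a library was omitted). *Prx* was 0.35 with edgeR and 1.01 with the DESeq2 Wald test. Over all tested genes 3673 were called, 2551 without control replicate 8 to 4181 without knockout replicate 5. The count was 1786 with the replicate block over 16 libraries, against 3280 in those libraries with no block, and 3037 on library totals alone, where 2188 were higher and 849 lower. Companion genes called were 4, from 3 to 6 when a library was omitted, and 1 (*Lpar1*) with the replicate block. Without the 5 libraries high in myelin genes 6 of 38 tested companions were called, 3 higher and 3 lower, beside 16.8% of all tested genes. They were *Erbb3*, *Lpar1*, *Ngfr*, *Plekhb1*, *Sptlc2* and *Zeb2*. Genes called on the other nervous system lists were 3, from 1 to 9 when a library was omitted. They were 1 with the replicate block (*Gfap*), 1 in those 16 libraries with no block (*Aqp4*) and 1 without the 5 libraries high in myelin genes (*Aqp4*). The cause of these moves was not tested, beyond the fewer samples in those fits. Same-numbered libraries did not deviate together (r from -0.36 to 0.17 over 8 numbers). Differently numbered libraries were not compared, so whether the numbers pair the samples was not settled. Depth limits *Mag*, *Fa2h*, *Sox10* and *Egr2* in the libraries outside the 5, where they rest on few counts, apart from *Sox10* in knockout replicate 4 (598 counts).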

Other observations

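Knockout replicate 4, high in *Sox10* but not in *Mbp*, *Prx* or *Fa2h*, was described further by genes chosen after their values were seen. They were those whose level there was farthest above the next library. *Elovl5*, an enzyme that lengthens polyunsaturated fatty acids, had 1083 CPM there and 98.3 CPM in the next library. *Cers4*, a ceramide synthase, had 310 and 27.7 CPM, *Far2*, a fatty acyl reductase, 36.3 and 3.90 CPM, and *Mboat2*, an acyltransferase of phospholipids, 96.4 and 11.6 CPM. *BC048679* had 333 and 18.9 CPM, *Paqr7*, a progestin receptor, 386 and 25.8 CPM, and the transcription factors *Irx1* and *Gata6* had 36.0 and 2.29 CPM and 17.6 and 1.14 CPM. *Acpp* and *Plet1* had 11.6 and 1.35 CPM and 13.8 and 1.65 CPM. With 1 library these values have no replicate, and their relation to *Sox10* was not tested.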
